A study of Mus musculus with 4 samples.

Results

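The 44 genes described here encode the enzymes and transporters that build and sulfate glycosaminoglycans (GAGs), and their transcripts were followed through single cells of the mouse spine. They were taken by symbol from the 32286 genes of the count matrices and comprise 6 genes of the linkage region, 6 of the chondroitin chain, 10 of chondroitin sulfation and epimerization, 5 of the heparan sulfate chain, 9 of heparan sulfate modification, 2 hyaluronan synthases and 6 genes of precursor supply. The measured cells were sorted for tdTomato (tdTom+), a red fluorescent protein switched on by Cre from the Prss56 locus, so that the label marks cells that once expressed Prss56 and their descendants. There were 4 libraries of 10x Genomics 3′ chemistry, 1 for each combination of genotype and age. Libraries labelled control came from Prss56-Nf1+/+ mice with 1 Cre allele (Prss56Cre/+), and libraries labelled mutant came from Prss56-Nf1fl/fl mice with 2 Cre alleles (Prss56Cre/Cre). All animals carried R26tdTom on both alleles and were 3 months (3M) or 12-16 months (12-16M) old. Any effect of Cre dosage and of Nf1 loss cannot be told apart here. Cells came from thoracic 11 to lumbar 2 vertebrae with visible tdTomato, were released with collagenase and dispase, and were sorted after removal of dead cells and of cells positive for CD11b, CD31 or CD45. How many animals went into a library is not given in the sources used here.

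GAGs are long sugar chains. Chondroitin sulfate and heparan sulfate grow on a serine of a core protein from a short linkage region that begins with xylose, and the next sugar added decides which of the chains is made. Sulfotransferases then place sulfate groups at defined positions, using an activated sulfate donor that cells make from imported sulfate. In cartilage the chondroitin sulfate chains of aggrecan hold water and resist compression, and inherited loss of sulfate import or of chondroitin sulfotransferases causes skeletal dysplasia. Hyaluronan differs in that it is made at the cell surface, without a core protein and without sulfate.

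The libraries held 717, 484, 135 and 421 passing cells and 9429264, 7287981, 2154537 and 4398951 UMIs (unique molecular identifiers, 1 for each captured RNA molecule) for control 3M, mutant 3M, control 12-16M and mutant 12-16M, and all values by library are given in this order. No cell barcode was shared by any pair of libraries. Nf1 stood at 131, 149.7, 147 and 125 CPM (UMI counts scaled to the same library total) and was therefore not lower in the mutant 3M library than in its control. Reads near the 3′ end of a transcript can persist after an exon is deleted, and the genotype is given as labelled. Transcripts of tdTomato were few, at 8.17, 4.67, 7.43 and 8.41 CPM over all passing cells, so the label rests on the sort.

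Cells were gated on genes outside the 44. Cells with Sox9, the transcription factor of chondrocytes, were called hypertrophic where Ihh, Panx3 and Prkg2 together had at least 2 UMIs, endplate where Zfp804b and Dab1 together had at least 3, and other cartilage where Acan (aggrecan) had at least 3, in this order. Cells with at most 2 Acan UMIs and at least 1 of Runx2, the transcription factor of bone-forming cells, formed the bone/stroma gate. The hypertrophic gate held 38, 136, 15 and 56 cells, the other cartilage gate 511, 203, 74 and 196, and the bone/stroma gate 44, 39, 26 and 83. Only the 3M libraries had at least 10 endplate cells (14 and 38), because cells that also met the endplate rule had been taken as hypertrophic. These were 163 of the 245 cells of the hypertrophic gate, at 16, 104, 11 and 32 by library. Cells of the hypertrophic gate were deeper, with a median UMI count of 19801.5 to 27015 by library against 7166 to 12374 in other cartilage. Col10a1, the collagen that defines hypertrophic chondrocytes, was at 2993, 639.9, 0 and 2215 CPM in the hypertrophic gate, so it was not detected in the 15 gated cells of control 12-16M.

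Some features of these gates move with the comparisons below and their part in the results was not tested, except where a value without the cells in question is given. In the bone/stroma gate, 33 of 192 cells had at least 1 UMI of Ptprc (CD45), 23 of them among the 39 cells of mutant 3M, and the summed level of 9 hematopoietic markers ran from 31.9 CPM in control 3M to 9393 CPM in mutant 3M. Other markers of that gate also differed between libraries, with 9 bone markers from 8896 CPM in mutant 3M to 152151 CPM in control 12-16M, 5 stroma markers from 2605 CPM in mutant 3M to 10072 CPM in mutant 12-16M, and 4 mural markers from 11.6 CPM in mutant 3M to 899.8 CPM in control 3M. The same hematopoietic markers summed to 2.26 to 10.1 CPM in the hypertrophic gate and to 4.31 to 29.6 CPM in other cartilage, where Ptprc was at 0. The 7 dissociation stress genes summed to 4197 to 8728 CPM in the hypertrophic gate, 10818 to 16951 CPM in other cartilage and 1096 to 4402 CPM in bone/stroma.

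Hypertrophic cells differed from the other cartilage gate in 39.0% of the GAG genes tested, in both directions, against 25.8% of all genes tested. From the endplate gate they differed in 0 members higher and 1 lower (0.194% and 0.274% of all genes). Endplate cells were summed in the 3M libraries only, and 163 of the 245 hypertrophic cells also met the endplate rule. The low count therefore cannot show that the 2 cell types are alike. Against other cartilage, the 4-O-sulfotransferase Chst11 was 6.19-fold higher in the hypertrophic gate, the sulfate donor synthase Papss2 4.29-fold and the sugar nucleotide transporter Slc35d1 5.29-fold. The chain initiator Csgalnact2 was 11.5-fold and the 6-O-sulfotransferase Chst3 29-fold lower. Of the 41 members that passed the filter on low counts, 9 rose and 7 fell at an adjusted p under 0.05 in edgeR's quasi-likelihood test, with the library as a block and n = 4 libraries (Benjamini-Hochberg over 11321 genes). The 7 include Chst3 and Hs3st1, which passed that filter only through other cartilage, so their tests are not used as support in any comparison. The lower count was 4 at 5000 UMIs per cell and 11 when Ptprc cells were left out of the bone/stroma gate of the same fit. Over all genes tested, 12.9% rose and 12.9% fell, and the median log2 difference was 0.09 over the members and 0.00 over all genes tested. In 14 of the 16 the ranges of the 4 libraries did not overlap between the gates. The 16 were called on these same libraries and the share over all genes was not counted, so this is description only. In either direction 25.8% of all genes were called. In bone/stroma 5 members were higher and 16 lower than in other cartilage (18.8% and 18.4% of all genes tested), or 8 higher without mutant 3M, with medians of -0.61 for the members and 0.03 for all genes. The 4 libraries act as replicates of a gate difference although they differ in age and genotype. Differences below are log2 values ± SE from this test, and levels are CPM of the summed UMIs of a gate. Bone/stroma levels of mutant 3M thus include its 23 of 39 cells with Ptprc. Without those cells levels moved both ways, with Sulf1 at 307 in place of 67.3 CPM and Chsy3 at 466 in place of 624 CPM.

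**Figure D1:**
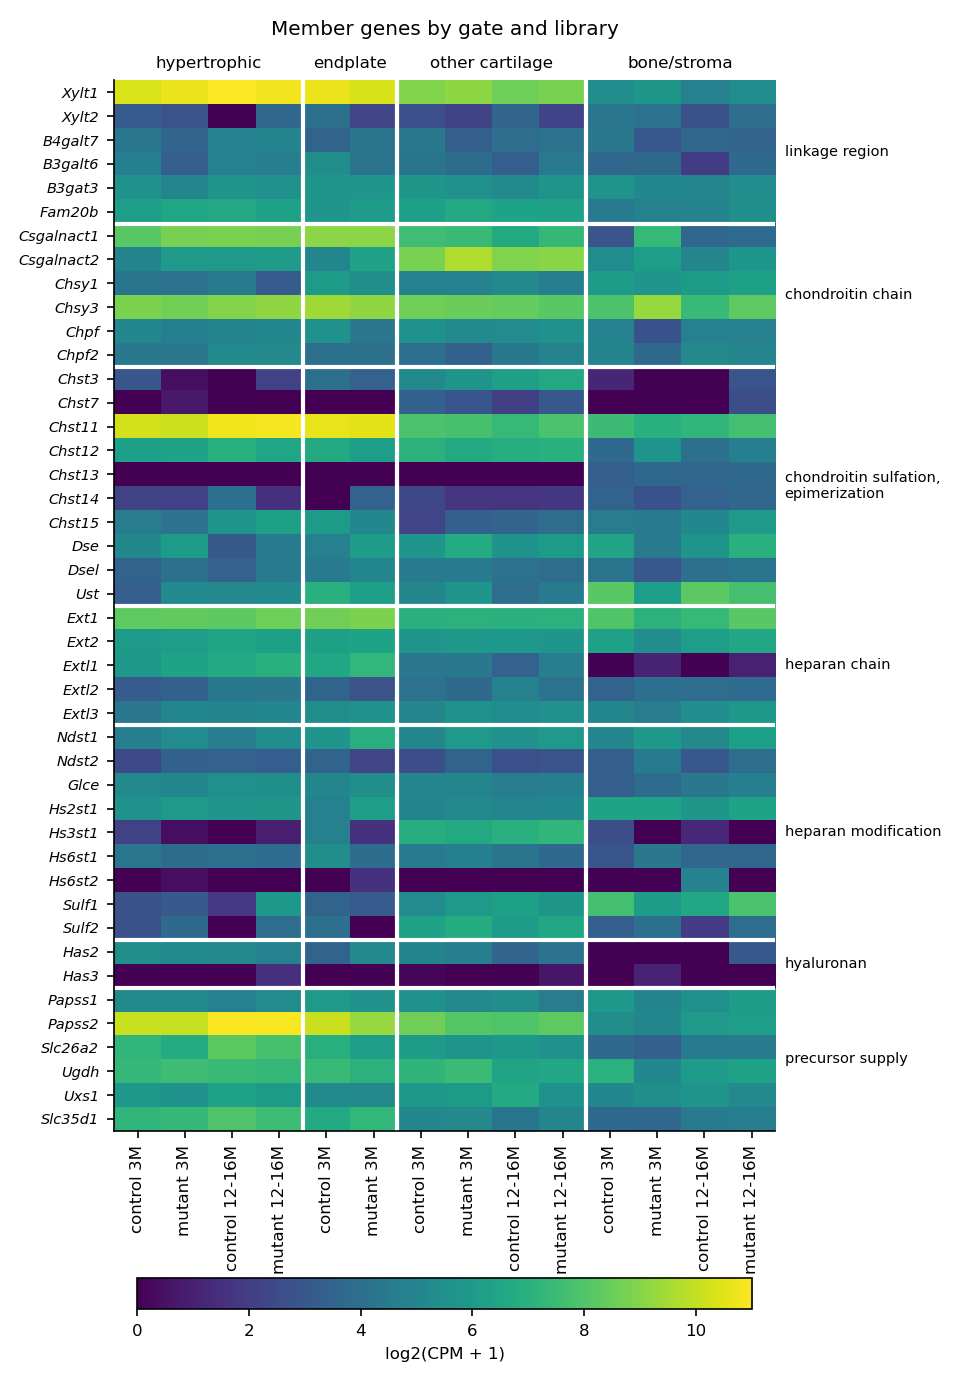
Level of each of the 44 members as log2(CPM + 1), by gate and library, with the genes grouped by role; endplate cells are shown for the 3M libraries only. Chst11, Papss2 and Xylt1 are brightest in the hypertrophic and endplate columns, whereas Csgalnact2, Chst3, Hs3st1 and Sulf2 are brighter in other cartilage than in hypertrophic cells.

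**Figure D2:**
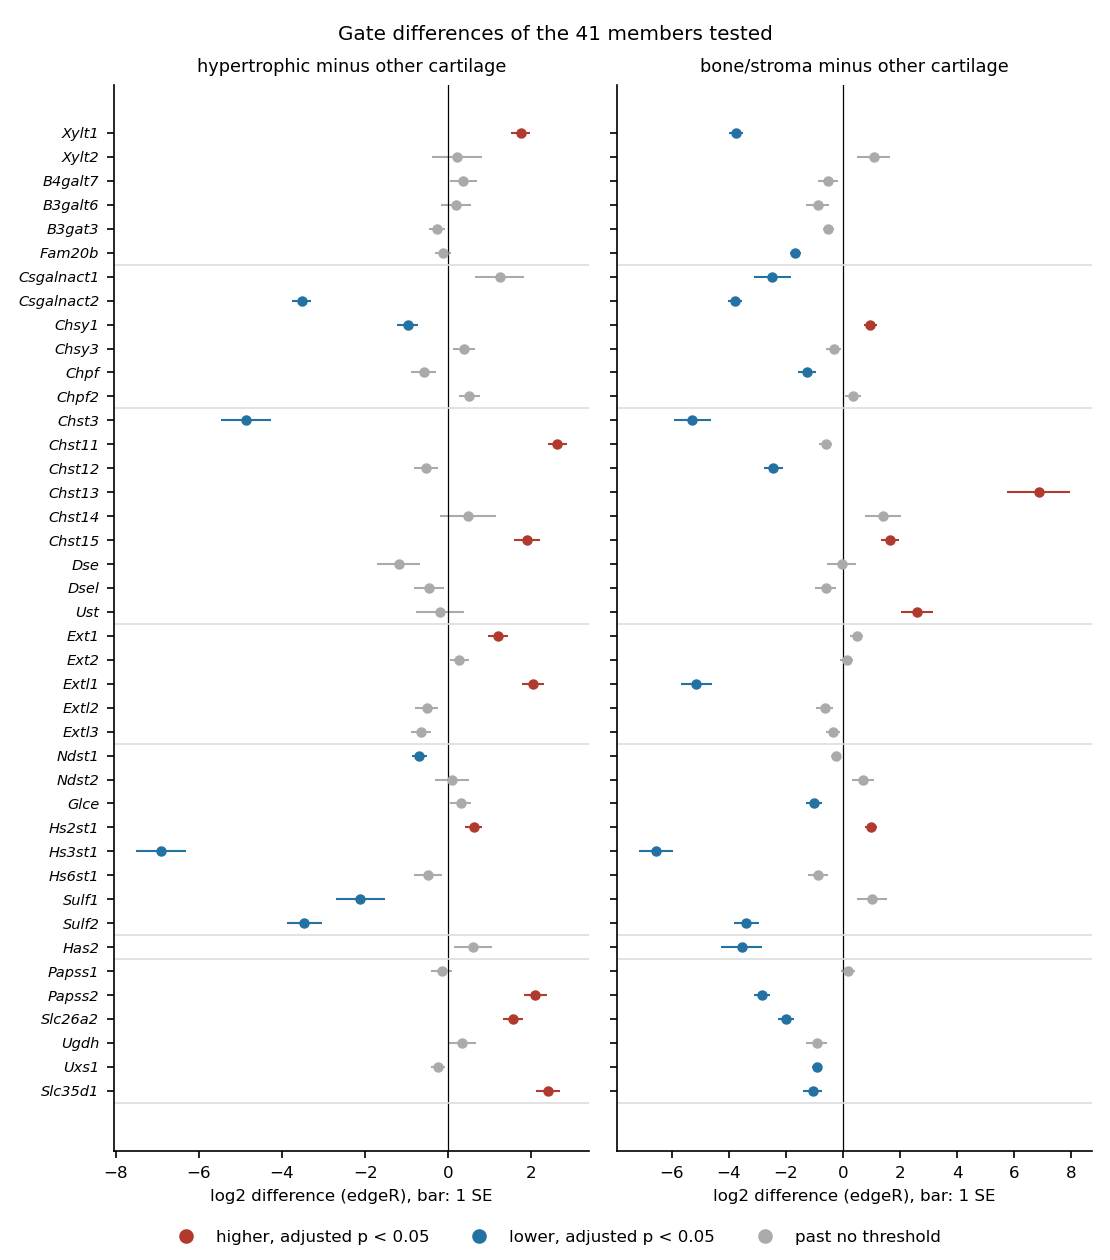
Log2 difference of each tested member between gates, with bars of 1 SE, colored by the test at an adjusted p under 0.05; Chst13 is left out of the left panel because it had no UMI in either gate. In the hypertrophic panel 9 members lie right of 0 and 7 left of it among those called, and in the bone/stroma panel 5 and 16.

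Of the linkage region genes, Xylt1, the xylosyltransferase that starts the chain on the core protein, changed most. Its level was 1332, 1648, 2018 and 1791 CPM in the hypertrophic gate and 487, 561, 383 and 436 CPM in other cartilage, a difference of 1.75 ± 0.22 (adjusted p = 0.000143). In bone/stroma it was at 40.8, 55.7, 26.7 and 39.2 CPM, a difference from other cartilage of -3.76 ± 0.25 (adjusted p = 7.36e-07). Every library thus placed Xylt1 in the same order over these 3 gates, highest in hypertrophic cells and lowest in bone/stroma, with no overlap, whereas endplate cells, at 1649 and 1308 CPM in the 3M libraries, overlapped hypertrophic cells. Fam20b, the kinase that phosphorylates the linkage xylose, was at 68.9, 90, 98.5 and 78.7 CPM in the hypertrophic gate and 72.7, 99.1, 83.3 and 76.8 CPM in other cartilage. In bone/stroma it fell to 21.7, 27.8, 29.6 and 43.3 CPM, below each of the other gates in every library, with a difference from other cartilage of -1.67 ± 0.20 (adjusted p = 4.81e-05). The second xylosyltransferase Xylt2 and the linkage transferases B4galt7, B3galt6 and B3gat3 passed the test in no gate comparison and lay between 0 and 55.1 CPM in these 3 gates.

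The chondroitin chain genes split. Csgalnact2, which adds the N-acetylgalactosamine that commits a linkage region to chondroitin, was at 30.5, 61.2, 60.6 and 67.2 CPM in the hypertrophic gate, 442, 825, 480.2 and 528 CPM in other cartilage and 39.5, 69.6, 31 and 53.7 CPM in bone/stroma. The lowest other cartilage library was above the highest library of either other gate, and the differences were -3.52 ± 0.23 (adjusted p = 2.25e-06) for hypertrophic cells and -3.79 ± 0.23 (adjusted p = 4.87e-07) for bone/stroma. Its paralog Csgalnact1 went the other way without passing the test in hypertrophic cells, at 290.4, 429, 442 and 425 CPM against 197, 169, 101 and 157 CPM, or 1.24 ± 0.58 (adjusted p = 0.14). In bone/stroma Csgalnact1 was at 6.37, 165, 11.3 and 13.4 CPM, where mutant 3M stood apart and overlapped other cartilage, and the difference was -2.48 ± 0.66 (adjusted p = 0.0105). That call was lost without control 3M (-2.03, adjusted p = 0.0627) and without mutant 12-16M (-2.08, adjusted p = 0.0698).

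Chsy1, a chondroitin synthase that extends the chain, was lowest in hypertrophic cells and highest in bone/stroma, at 18.1, 16.4, 22.7 and 7.95 CPM in hypertrophic cells, 27.8, 27.6, 35.1 and 25.2 CPM in other cartilage and 66.3, 52.2, 63.3 and 74.3 CPM in bone/stroma. The 4 libraries did not overlap between any pair of these gates. The difference in hypertrophic cells was -0.98 ± 0.25 (adjusted p = 0.0135). It no longer passed the test without control 3M (-1.14, adjusted p = 0.0609), without mutant 12-16M (-0.77, adjusted p = 0.0519), without cells meeting both the hypertrophic and the endplate rule (-0.73, adjusted p = 0.129), with the endplate rule applied first (-0.69, adjusted p = 0.141) and at 5000 UMIs per cell (-0.97, adjusted p = 0.2). The difference in bone/stroma was 0.95 ± 0.23 (adjusted p = 0.00593), and without control 3M it was 0.90 (adjusted p = 0.0658). Chpf, a partner of the synthases in polymerization, was at 48.1, 37.8, 38.4 and 46.8 CPM in other cartilage and 28, 5.8, 26.7 and 26.8 CPM in bone/stroma, a difference of -1.25 ± 0.31 (adjusted p = 0.00758), but at 5000 UMIs per cell the difference was -0.22 (adjusted p = 0.673). The synthase Chsy3 was among the most abundant of the chain genes, at 449, 408, 489.9 and 570.0 CPM in hypertrophic cells, 375, 363, 337 and 288 CPM in other cartilage and 243, 624, 173 and 309.6 CPM in bone/stroma. Every hypertrophic library was above every other cartilage library, but the difference of 0.38 ± 0.27 (adjusted p = 0.338) did not pass the test, and bone/stroma overlapped both gates. Chpf2, which overlaps Smarcd3 in the annotation, was not called either, at 20.3, 19.7, 37.9 and 35.4 CPM in hypertrophic cells, 15.2, 9.78, 20.8 and 29.4 CPM in other cartilage and 30.6, 12.8, 35.2 and 31 CPM in bone/stroma, and its ranges overlapped.

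Among the chondroitin sulfotransferases, Chst11 and Chst3 differed between hypertrophic cells and other cartilage in opposite directions. Endplate cells of the 3M libraries also held much Chst11, at 1575 and 1493 CPM, and little Chst3, at 15.9 and 9.92 CPM. With 8 Chst3 UMIs in endplate cells, its difference from other cartilage, -2.20 ± 0.80 (adjusted p = 0.0945), did not pass the test. Chst11, which sulfates position 4 of N-acetylgalactosamine, was at 1241, 1149.9, 1712 and 1859 CPM in hypertrophic cells and 237, 225, 164 and 237 CPM in other cartilage, with every hypertrophic library above every other cartilage library and a difference of 2.63 ± 0.23 (adjusted p = 1.38e-05). In bone/stroma it was at 185, 125, 149 and 212 CPM and missed the threshold at -0.60 ± 0.23 (adjusted p = 0.0528). Chst3, which sulfates position 6, was nearly absent from hypertrophic cells at 6.78, 0.334, 0 and 3.54 CPM, against 38, 50.2, 74.5 and 97.3 CPM in other cartilage, a difference of -4.86 ± 0.60. The 0 of control 12-16M allows up to 7.58 CPM at the floor of 3 counts, which lies below every other cartilage library. Bone/stroma held Chst3 at 1.27, 0, 0 and 6.19 CPM, a difference from other cartilage of -5.28 ± 0.64. Chst3 passed the filter on low counts only through other cartilage, so its tests are not used as support. It is still counted among the members called lower.

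Chst15, which adds a further 6-sulfate to 4-sulfated units, was higher in both comparisons. It was at 23.7, 17.1, 53 and 76 CPM in hypertrophic cells, 3.89, 9.36, 11 and 14.4 CPM in other cartilage and 24.2, 23.2, 33.8 and 59.9 CPM in bone/stroma, with every library of the first and the last gate above all of other cartilage. The differences were 1.89 ± 0.31 (adjusted p = 0.000909) and 1.66 ± 0.32 (adjusted p = 0.00153). In hypertrophic cells the call was lost without the cells that met both rules (1.502, adjusted p = 0.0525) and at 5000 UMIs per cell (1.26, adjusted p = 0.0654), and the gene overlaps Fgfr2 in the annotation. Chst12, a second 4-O-sulfotransferase, was at 72.3, 80.6, 126 and 91 CPM in hypertrophic cells and 134, 101, 115 and 125 CPM in other cartilage, -0.54 ± 0.30 (adjusted p = 0.212), and fell to 12.7, 51, 15.5 and 25.8 CPM in bone/stroma, -2.44 ± 0.33 (adjusted p = 0.00011). Every bone/stroma library lay below every library of the cartilage gates.

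A pair of sulfotransferases, Chst13 and Ust, were higher in bone/stroma. Chst13, the third 4-O-sulfotransferase, had 37 UMIs there, at 8.92, 11.6, 11.3 and 12.4 CPM, and none in the other gates. Against the floor of 3 counts over all 12121482 UMIs of other cartilage it was at least 44.9-fold higher in bone/stroma. It passed the filter on low counts only through that gate, so its test is not used as support. It is still counted among the 5 members called higher in bone/stroma. Ust, which sulfates position 2 of the uronic acid, was at 289, 69.6, 298 and 214 CPM in bone/stroma and 32.3, 50.6, 14.3 and 22.8 CPM in other cartilage, higher by 2.59 ± 0.57 (adjusted p = 0.00343) and without overlap, and at 9.04, 36.5, 35.4 and 37.1 CPM in hypertrophic cells. The epimerase Dse, which turns chondroitin into dermatan, was at 33.9, 63.6, 7.58 and 22.1 CPM in hypertrophic cells, 54.2, 107, 49.3 and 63 CPM in other cartilage and 85.4, 23.2, 50.7 and 126 CPM in bone/stroma, with overlapping ranges, and was not called. Its paralog Dsel and the dermatan 4-O-sulfotransferase Chst14 were not called and stayed between 1.77 and 22.1 CPM in these gates. Chst7, the second 6-O-sulfotransferase, was too low to be tested, at 9.73, 6.8, 3.29 and 7.2 CPM in other cartilage and at most 5.16 CPM in the other gates.

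The sequences upstream of 4 genes are printed to show where the opposed members of this group begin: Chst11 and Papss2 from the higher members, and Chst3 and Csgalnact2 from the lower. They were chosen after their values were seen. Each is the 250 bases before a RefSeq start in GRCm38.p6, read 5′ to 3′ on the strand of the gene, and capitals mark RUNX (TGTGGT or TGCGGT) and SOX (ACAAAG or ACAATG) motifs searched on both strands. Papss2 and Csgalnact2 had 2 RefSeq entries each, and only the first is printed. The windows are chr10:82985247-82985496 on the plus strand, chr19:32595465-32595714 on the plus strand, chr10:60219261-60219510 on the minus strand and chr6:118139141-118139390 on the minus strand.
Chst11: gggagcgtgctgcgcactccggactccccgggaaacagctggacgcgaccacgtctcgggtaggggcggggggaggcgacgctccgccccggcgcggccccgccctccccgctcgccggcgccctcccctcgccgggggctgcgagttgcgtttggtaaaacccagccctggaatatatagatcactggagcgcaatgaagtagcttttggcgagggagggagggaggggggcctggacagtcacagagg
Papss2: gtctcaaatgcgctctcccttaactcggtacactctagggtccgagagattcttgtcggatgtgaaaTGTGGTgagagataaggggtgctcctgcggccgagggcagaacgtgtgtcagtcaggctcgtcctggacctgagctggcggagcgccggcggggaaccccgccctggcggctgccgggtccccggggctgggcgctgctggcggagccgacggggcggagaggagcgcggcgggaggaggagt
Chst3: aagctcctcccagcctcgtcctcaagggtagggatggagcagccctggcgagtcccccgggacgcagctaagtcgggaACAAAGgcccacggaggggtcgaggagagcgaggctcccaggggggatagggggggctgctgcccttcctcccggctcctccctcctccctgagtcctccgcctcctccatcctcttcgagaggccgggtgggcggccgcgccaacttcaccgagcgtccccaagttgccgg
Csgalnact2: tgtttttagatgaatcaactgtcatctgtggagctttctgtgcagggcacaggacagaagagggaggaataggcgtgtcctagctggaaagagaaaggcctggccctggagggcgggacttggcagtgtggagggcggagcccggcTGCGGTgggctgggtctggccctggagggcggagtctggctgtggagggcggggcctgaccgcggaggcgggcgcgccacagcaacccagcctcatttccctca
The Chst11 window held neither motif, the printed windows of Papss2 and Csgalnact2 held 1 RUNX motif each, and that of Chst3 held 1 SOX motif. RefSeq had entries for 34 of the 44 members. Of all 32851 promoter windows of this length, 18.6% held the RUNX and 25.2% the SOX motif. Among the members called in hypertrophic cells, 2 of 8 windows of the higher genes and 2 of 7 of the lower genes held the RUNX motif, and 0 of 8 and 1 of 7 the SOX motif. GC content was 70.0%, 67.6%, 69.6% and 64.0% in the printed windows, against a median of 52.4% over all windows. A match is only an occurrence of these letters.

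Heparan sulfate chain genes rose in hypertrophic cells where they were called. Ext1, a subunit of the heparan sulfate polymerase, was at 304, 320.4, 295 and 375 CPM in hypertrophic cells and 126, 133, 125 and 128 CPM in other cartilage, 1.20 ± 0.23 (adjusted p = 0.00243), with no overlap. In bone/stroma it was at 256, 133, 165 and 293 CPM and was not called, at 0.48 ± 0.23 (adjusted p = 0.127). Extl1, a related glycosyltransferase, was at 56.5, 80.6, 104 and 125 CPM in hypertrophic cells, 19.5, 20.4, 9.87 and 25.2 CPM in other cartilage and 0, 1.16, 0 and 1.03 CPM in bone/stroma, where 2 libraries had no UMI. These levels gave differences of 2.04 ± 0.27 (adjusted p = 0.000162) and -5.14 ± 0.55 (adjusted p = 1.92e-05), and the gates did not overlap. Ext2, the other polymerase subunit, and Extl2 and Extl3 were called in neither comparison and lay between 7.91 and 92.9 CPM.

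Of the genes that modify heparan sulfate, 4 fell and 1 rose in hypertrophic cells (12.9% of all genes in each direction). Hs3st1, which adds the 3-O-sulfate of the antithrombin-binding site, was at 3.39, 0.334, 0 and 0.884 CPM in hypertrophic cells, 116, 100.4, 127 and 149 CPM in other cartilage and 5.1, 0, 1.41 and 0 CPM in bone/stroma. Every library of other cartilage was above every library of these other gates, with differences of -6.92 ± 0.60 and -6.56 ± 0.60. Hs3st1 passed the filter on low counts only through other cartilage, so its tests are not used as support. It is still counted among the 4 that fell. Sulf2, an extracellular enzyme that removes 6-O-sulfates, had a pattern of levels like that of Hs3st1, at 5.65, 12.7, 0 and 14.1 CPM in hypertrophic cells, 79.9, 113, 65.8 and 93.1 CPM in other cartilage and 8.92, 15.1, 2.82 and 14.4 CPM in bone/stroma, with differences of -3.46 ± 0.43 (adjusted p = 0.000107) and -3.39 ± 0.43 (adjusted p = 6.95e-05). Sulf2 overlaps Ncoa3 in the annotation. The related Sulf1 was at 5.65, 7.36, 2.53 and 57.4 CPM in hypertrophic cells, where mutant 12-16M stood apart, 38.4, 61.7, 75.6 and 56.4 CPM in other cartilage and 210.3, 67.3, 97.1 and 236 CPM in bone/stroma. Its difference in hypertrophic cells of -2.12 ± 0.58 (adjusted p = 0.0185) came with overlapping ranges. The call was lost without control 3M (-2.18, adjusted p = 0.0518), mutant 3M (-1.45, adjusted p = 0.0963) or control 12-16M (-1.78, adjusted p = 0.0868), and at 5000 UMIs per cell the difference was -0.39 (adjusted p = 0.708). It was also lost without the library block (-1.70, adjusted p = 0.0655), without cells meeting both rules (-0.85, adjusted p = 0.412) and with the endplate rule applied first (-0.97, adjusted p = 0.328).

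Ndst1 and Hs2st1 differed by less than 1 log2 unit. Ndst1, the N-deacetylase/N-sulfotransferase that opens modification, was at 26, 39.1, 25.3 and 41.5 CPM in hypertrophic cells and 32.5, 58.7, 46 and 60.6 CPM in other cartilage, overlapping ranges that gave -0.70 ± 0.18 (adjusted p = 0.0129). The call was lost without control 12-16M (-0.64, adjusted p = 0.0639), without mutant 12-16M (-0.68, adjusted p = 0.0732), without the library block (-0.67, adjusted p = 0.124) and at 5000 UMIs per cell (-1.19, adjusted p = 0.0756). The gene overlaps Rps14. Hs2st1, which sulfates position 2 of iduronic acid, was at 47.5, 61.5, 53 and 55.7 CPM in hypertrophic cells, 29.5, 35.3, 30.7 and 34.2 CPM in other cartilage and 79, 78.9, 56.3 and 81.5 CPM in bone/stroma, with other cartilage below both other gates in every library. Its difference in hypertrophic cells, 0.61 ± 0.21, adjusted p = 0.04997, lay at the threshold. Without any 1 of the 4 libraries it was 0.56 to 0.65 and not called, with adjusted p from 0.0617 to 0.145, whereas in bone/stroma it was 0.97 ± 0.21 (adjusted p = 0.00283). The call in hypertrophic cells was also lost in other alternatives, such as without the filter on low counts (0.52, adjusted p = 0.215). The epimerase Glce was at 37.3, 32.4, 45.5 and 44.2 CPM in hypertrophic cells and 31, 31.5, 24.1 and 25.8 CPM in other cartilage, and lower in bone/stroma at 8.92, 13.9, 19.7 and 25.8 CPM, -1.001 ± 0.28 (adjusted p = 0.0138). That call was lost without control 3M (-0.73, adjusted p = 0.127) or mutant 3M (-0.79, adjusted p = 0.0688) and at 5000 UMIs per cell (-1.12, adjusted p = 0.0933). Ndst2 and Hs6st1 were not called. Hs6st2 was too low to be tested, and 20 of its UMIs came from the bone/stroma cells of control 12-16M, at 28.2 CPM.

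Hyaluronan synthase Has2 was at 42.9, 37.1, 35.4 and 27.4 CPM in hypertrophic cells, 30, 25.1, 11 and 17.4 CPM in other cartilage and 0, 0, 0 and 7.22 CPM in bone/stroma. Only mutant 12-16M had any Has2 UMI in bone/stroma, and the difference from other cartilage was -3.56 ± 0.72 (adjusted p = 0.00203). Has3 was too low to be tested, at 1.77 CPM or less in every gate and library.

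Of the 6 genes of precursor supply, 3 rose in hypertrophic cells and 4 fell in bone/stroma, where 12.9% and 18.4% of all genes did so. Papss2, which makes the sulfate donor PAPS, was at 1074, 1040.2, 1980.0 and 1886 CPM in hypertrophic cells, 387, 270.0, 247 and 306 CPM in other cartilage and 42.1, 32.5, 60.5 and 68.1 CPM in bone/stroma. The 3 gates did not overlap, with differences of 2.10 ± 0.27 (adjusted p = 0.000128) and -2.86 ± 0.28 (adjusted p = 1.01e-05). Slc26a2, the sulfate transporter whose loss causes diastrophic dysplasia, had the same order, at 148, 109, 298 and 219 CPM in hypertrophic cells, 65.2, 50.2, 57 and 46.2 CPM in other cartilage and 12.7, 9.28, 22.5 and 22.7 CPM in bone/stroma, with differences of 1.55 ± 0.24 (adjusted p = 0.000624) and -1.9998 ± 0.29 (adjusted p = 0.00017). The nucleotide sugar transporter Slc35d1 was at 150.3, 158, 253 and 192 CPM in hypertrophic cells and 34.6, 34.9, 18.6 and 32.4 CPM in other cartilage, 2.40 ± 0.29 (adjusted p = 8.06e-05), with every hypertrophic library above. Its lower level in bone/stroma, 12.7, 11.6, 22.5 and 24.8 CPM or -1.06 ± 0.33 (adjusted p = 0.0223), overlapped other cartilage. The call was lost without the cells holding Ptprc (-0.76, adjusted p = 0.0633), with any number of cells per gate (-0.98, adjusted p = 0.0813) and without control 3M (-0.86, adjusted p = 0.164), mutant 3M (-0.78, adjusted p = 0.0938) or mutant 12-16M (-1.18, adjusted p = 0.0601). Uxs1, which makes UDP-xylose, was at 56.5, 47.8, 78.3 and 63.6 CPM in hypertrophic cells, 57, 62.5, 106 and 49.2 CPM in other cartilage and 34.4, 44.1, 50.7 and 35.1 CPM in bone/stroma and fell in bone/stroma by 0.91 ± 0.18 (adjusted p = 0.0016), with ranges that overlapped. The paralog Papss1 and Ugdh, which makes UDP-glucuronic acid, were called in neither comparison, with Papss1 between 24.0 and 65.0 CPM and Ugdh at 160.5, 193, 172 and 160.0 CPM in hypertrophic cells, 148, 182, 84.4 and 93.1 CPM in other cartilage and 129, 33.6, 67.6 and 78.4 CPM in bone/stroma.

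Endplate cells, summed in the 3M libraries only, were compared with other cartilage in the same fit, which held other cartilage from all 4 libraries. Endplate cells had 7 members higher and 4 lower, where 6.78% and 6.23% of all genes were called. The higher members were Xylt1 (1.28 ± 0.27, adjusted p = 0.011), Chst11 (2.60 ± 0.27, adjusted p = 0.000234), Chst15 (2.65 ± 0.46, adjusted p = 0.00351), Ext1, Extl1, Papss2 and Slc35d1. The lower were Csgalnact2 (-3.71 ± 0.34, adjusted p = 0.000118), Hs3st1 (only 6 UMIs in endplate cells), Sulf2 (only 3 UMIs) and Uxs1. Several of these calls were lost in alternatives. With any number of cells per gate, Xylt1 was at 0.63 (adjusted p = 0.524), Papss2 at 1.05 (0.271) and Ext1 at 1.05 (0.0589). At 5000 UMIs per cell, Chst15 was at 1.53 (0.122) and Slc35d1 at 1.00 (0.101). Chst15 was at 2.03 (0.0664) without the library block, and Papss2 at 1.29 (0.05003) without mutant 12-16M. A fit without control 3M or mutant 3M left endplate cells in 1 library. The Uxs1 call of -1.03 ± 0.28 (adjusted p = 0.03) was lost with DESeq2 (adjusted p = 0.0605), without doublets (0.0549), without cells meeting both rules (0.06) and without control 3M (0.205), mutant 3M (0.296) or control 12-16M (0.0653), and the difference was -0.43 (adjusted p = 0.0875) with the endplate rule first. Without control 3M 2 members were called higher, and without mutant 3M 1 was called lower. When the 163 cells that met both rules were instead counted as endplate, an order chosen after seeing the data, the endplate gate reached 10 cells in all 4 libraries and the hypertrophic gate in 3. Then 8 members were higher and 5 lower (13.7% and 13.7% of all genes), with Chst11 at 2.62 ± 0.23 (adjusted p = 7.49e-06), Papss2 at 2.04 ± 0.25 (adjusted p = 9.4e-05) and Csgalnact2 at -3.55 ± 0.24 (adjusted p = 1.33e-06). Chst3 was at -4.25 ± 0.54, and its test is again not used as support. Between the hypertrophic and endplate gates themselves, edgeR called 0 members higher and 1 lower (0.194% and 0.274% of all genes, or 0.468% in either direction), with 3 and 4 at an unadjusted p under 0.05, and DESeq2 called 0 and 2. The lower member was Ndst1 at -1.31 ± 0.24 (adjusted p = 0.0447), a call lost without any 1 of the 4 libraries and with the endplate rule first.

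Other genes of GAG metabolism also moved in both directions in hypertrophic cells. Of 20 tested genes of further synthesis steps, 4 rose and 4 fell, and the counts here are to be read against the 12.9% of all genes that rose and the 12.9% that fell. Among the 8, Has1, a hyaluronan synthase, differed by -6.58 ± 1.05 (adjusted p = 0.0025), and Hs6st3, a heparan 6-O-sulfotransferase, by 4.45 ± 0.94 (adjusted p = 0.00433). Uap1, which makes UDP-N-acetylglucosamine, fell by 2.10 ± 0.26 (adjusted p = 0.000104). Of 9 keratan sulfate genes, 1 rose and 4 fell, and the sulfotransferases Chst5 and Chst1 were lower, with differences of -6.06 ± 0.49 (adjusted p = 8.52e-06) and -4.15 ± 0.46 (adjusted p = 5.09e-05). Of 15 degradation genes 1 rose and 3 fell, with Cemip, a hyaluronan-degrading protein, higher by 2.88 ± 0.65 (adjusted p = 0.00609). Of 22 proteoglycan core proteins and partners, 5 rose and 7 fell, led by Prg4 (lubricin) at -10.16 ± 1.02 (adjusted p = 2.68e-05), Vcan (versican) at -7.97 ± 1.08 (adjusted p = 0.000206) and Dcn (decorin) at -5.63 ± 1.15 (adjusted p = 0.00336). In bone/stroma 9 of the 20 synthesis genes fell, Hs3st3a1 most at -6.61 ± 0.50 (adjusted p = 1.58e-06), beside 3 higher and 2 lower keratan genes, 1 higher and 3 lower degradation genes, and 5 higher and 10 lower core proteins, where 18.8% of all genes were higher and 18.4% lower.

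The share of cells with at least 1 UMI was compared after each cell was thinned to 5000 UMIs. Here the gates were those set on the full counts. Csgalnact2 was found in a median of 28.8% of hypertrophic cells over the 4 libraries (range 14.3 to 33.3%) and 83.3% of other cartilage cells (76.8 to 92.4%). Cells with Ptprc and without Sox9 or Runx2, taken as cells outside the skeletal lineage, had it in 26.7 to 33.3% (27 cells of 2 libraries). The share in hypertrophic cells was thus no higher than in those cells. This cannot decide whether hypertrophic cells expressed Csgalnact2, because whether the Ptprc cells did so was not tested. Chst3 was in a median of 0% of hypertrophic cells (0 to 0.741%) and 27.1% of other cartilage cells (15.4 to 33.6%), with 13.3 to 16.7% in the Ptprc cells. The Ptprc cells thus exceeded hypertrophic cells in Chst3, and whether they expressed it themselves was not tested. Papss2 and Chst11 were in 92.1% and 97.8% of hypertrophic cells, 60.4% and 59.8% of other cartilage cells, and at most 6.67% and 16.7% of Ptprc cells. In unthinned cells the medians in hypertrophic and other cartilage cells were 62.7% and 89.4% for Csgalnact2, 3.05% and 36.2% for Chst3, 98.4% and 74.8% for Papss2, and 99.6% and 79.1% for Chst11. The Ptprc cells had median depths from 1182.5 to 9359 UMIs by library, and 900 of 984 other cartilage cells and 239 of 245 hypertrophic cells were deep enough to be thinned.

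Transcripts of 6-O-sulfotransferases (Chst3 and Chst7) were set against those of 4-O-sulfotransferases (Chst11, Chst12 and Chst13) in each library. The total UMIs of a gate cancel in this ratio, but which cells entered a gate depended on their depth. Each captured RNA molecule counts as 1 UMI, and the ratio describes transcripts and not sulfation. Where in the genes the counted reads lay was not tested. In other cartilage the ratio was 0.129 (0.115 to 0.144) in control 3M, 0.175 (0.144 to 0.21) in mutant 3M, 0.278 (0.211 to 0.364) in control 12-16M and 0.288 (0.242 to 0.342) in mutant 12-16M, with exact 95% intervals that cover counting error only. Both older libraries thus lay above both younger ones, and in the controls the intervals of the ages did not overlap, nor in the mutants. In hypertrophic cells the ratio was 0.00516 (0.00189 to 0.0113), 0.000815 (0.000168 to 0.00238), 0 and 0.00181 (0.000493 to 0.00465), and in bone/stroma 0.00617 (0.000155 to 0.0349), 0, 0 and 0.0455 (0.0224 to 0.0828). Every library of these gates was below every library of other cartilage. With cells thinned to 5000 UMIs and gated anew, the ratio in other cartilage was 0.108 in control 3M and 0.217 in mutant 12-16M.

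**Figure D3:**
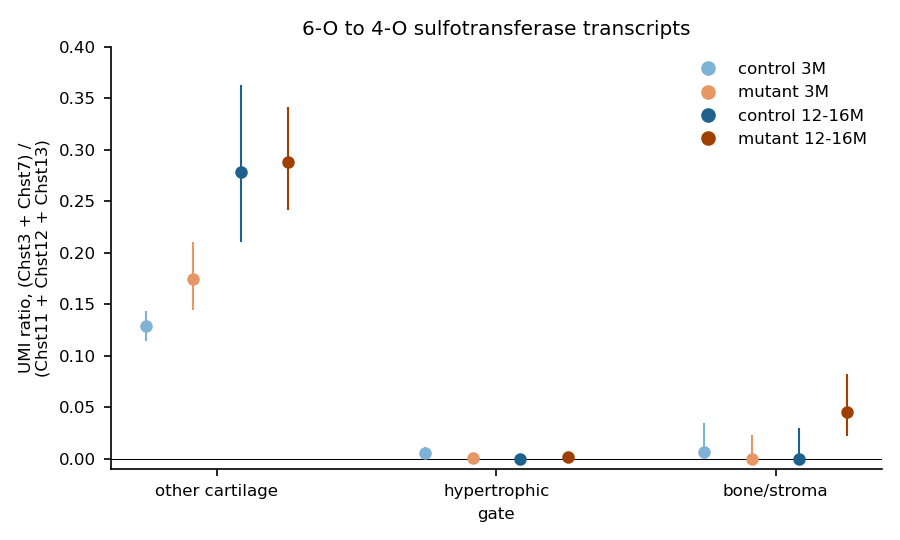
UMI ratio of 6-O to 4-O chondroitin sulfotransferase transcripts on a linear axis, by gate and library, with exact 95% intervals for counting error. The other cartilage points range from 0.129 in control 3M to 0.288 in mutant 12-16M, and those of the hypertrophic gate lie at 0.00516 or below.

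Age was compared within each genotype, library against library, so no p-value can be given. A member was called where the ratio of its CPM was at least 1.5-fold and its 95% interval, which covers counting error only, left out 1, among members with at least 20 UMIs. In hypertrophic cells 10 members were higher and 1 lower at 12-16 months in controls (11% and 9.56% of all genes), and 11 and 2 in mutants (13% and 10.2%). The same direction in both genotypes was found for 4 higher members of 31 compared, where 1.4% of all genes did so, and for 1 lower member (1.94%). Papss2 was higher at 12-16 months by a ratio of 1.84 (1.68 to 2.03) in controls and 1.81 (1.72 to 1.92) in mutants, and Slc26a2 by 2.01 (1.56 to 2.6) and 2.02 (1.7 to 2.39). Chst15 was higher by 2.23 (1.16 to 4.3) and 4.46 (3.12 to 6.43), and Extl1 by 1.83 (1.18 to 2.83) and 1.55 (1.25 to 1.91). Dse was the lower one, at 0.223 (0.0436 to 0.719) and 0.348 (0.219 to 0.529), with only 3 UMIs in control 12-16M. Without the cells that met both rules, the log2 ratio of Extl1 in mutants was 0.20 in place of 0.63. Control 12-16M then had fewer than 10 hypertrophic cells, so calls in both genotypes could not be made without these cells. The older control gate held 15 cells and no Col10a1.

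In other cartilage Chst3 was higher at 12-16 months in both genotypes, by 1.96 (1.48 to 2.57) in controls and 1.94 (1.52 to 2.48) in mutants, and was the only 1 of 39 members compared to be so, where 1.74% of all genes were. Ugdh was lower in both, at 0.571 (0.447 to 0.72) and 0.51 (0.422 to 0.614), as was Ust, at 0.442 (0.232 to 0.771) and 0.451 (0.304 to 0.654) (1.3% of all genes). Within controls alone 5 members were higher and 8 lower (8.32% and 5.21% of all genes), and within mutants 2 and 5 (7.54% and 8.21%). Dcn, a core protein of fibrous tissue, was at 6528, 5637, 16244 and 18957 CPM in other cartilage, higher in both older libraries, and its part in the result was not tested. It was chosen after its values were seen. In bone/stroma 0 of 27 members compared had the same age call in both genotypes (2.1% of all genes higher and 1.84% lower). Over all passing cells Chpf2 and Chst15 were higher at 12-16 months in both genotypes (4.6% of all genes) and Has2 was lower (1.16%), from 4 higher and 6 lower members in controls (15.7% and 7.45%) and 8 and 4 in mutants (12.3% and 9.23%).

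**Figure D4:**
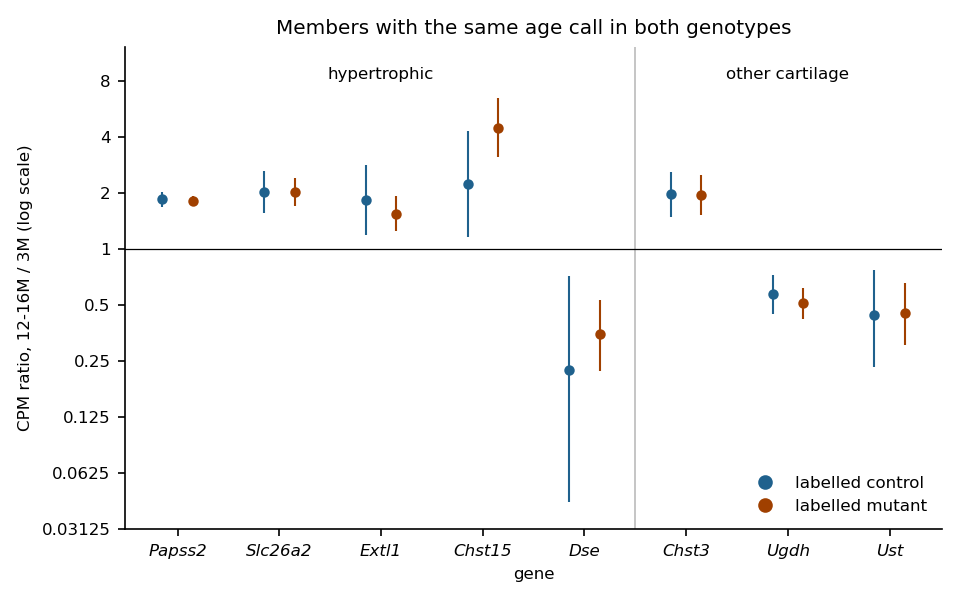
Ratio of CPM at 12-16 months to CPM at 3 months on a log axis for the members called in the same direction in both genotypes, with 95% intervals for counting error. Papss2, Slc26a2, Extl1 and Chst15 lie above 1 in hypertrophic cells and Dse below 1, and in other cartilage Chst3 lies above 1 and Ugdh and Ust below.

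The comparison of label, mutant against control, found 0 of 33 members in hypertrophic cells and 0 of 37 in other cartilage with the same call at both ages (1.15% and 0.7% of all genes higher, 0.494% and 1.03% lower). At 3 months alone, 3 members were higher and 2 lower in hypertrophic cells (13.5% and 10.9% of all genes) and 8 and 1 in other cartilage (6.15% and 9.03%). The 8 included Csgalnact2 at 1.86 (1.76 to 1.97), Dse at 1.98 (1.68 to 2.32), Ndst1 at 1.8 (1.45 to 2.24) and Sulf1 at 1.61 (1.31 to 1.97), and the lower one was B4galt7 at 0.443 (0.266 to 0.703). These were chosen after their values were seen. In endplate cells of that age 3 of 27 members were higher and 1 lower (11% and 8.33%). At 12-16 months 1 member was higher and 0 lower in hypertrophic cells (8.48% and 6.68% of all genes), and 3 were higher and 2 lower in other cartilage (3.8% and 7.87%). The ratio of Csgalnact2 in other cartilage was 1.1 (0.979 to 1.24) at that age. Over all passing cells Extl1, Chst15 and Ndst1 were higher in the mutant libraries at both ages (5.68% of all genes), from 10 higher and 6 lower members at 3 months (25% and 9.98%) and 6 higher and 3 lower at 12-16 months (11.2% and 5.25%). The share of hypertrophic cells, in which Extl1 and Chst15 were higher, was 136 of 484 cells in mutant 3M and 38 of 717 in control 3M, and 56 of 421 and 15 of 135 at 12-16 months, and its part in this result was not tested.

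In bone/stroma the label comparison gave 7 members higher and 10 lower at 3 months (29.6% and 15.2% of all genes) and 7 higher and 1 lower at 12-16 months (20.6% and 4.49%). Without the cells holding Ptprc, a restriction chosen after seeing the data that left 43, 16, 24 and 76 cells, 4 were higher and 2 lower at 3 months (18% and 8.35%) and 9 higher and 1 lower at 12-16 months (23.8% and 3.8%). Csgalnact2, Chsy3 and Ndst1 were higher in the mutant libraries at both ages in all gated cells, 3 of 27 members where 5.48% of all genes were. For Csgalnact2 and Chsy3 this depended on how cells were counted: with cells weighted equally Csgalnact2 had a log2 ratio of -0.28 at 12-16 months, and Chsy3 at 3 months had -0.19 with cells weighted equally and -1.35 at 5000 UMIs per cell, against 1.36 as counted. Bone, stroma and mural markers also differed between these libraries, as given above, and their part in these counts was not tested. Chsy3 was higher by 2.56 (2.17 to 3.04) at 3 months and 1.79 (1.45 to 2.22) at 12-16 months, and without Ptprc cells by 1.91 (1.46 to 2.47) and 1.71 (1.38 to 2.13). Ndst1 was higher by 1.72 (1.05 to 2.88) and 2.05 (1.28 to 3.38), and without Ptprc cells by 3.34 (1.79 to 6.18) and 2.53 (1.51 to 4.46). Both intervals stayed above 1 without these cells, although Chsy3 was then less high at 3 months, whereas Csgalnact2 went from 1.76 (1.12 to 2.81) to 1.24 (0.519 to 2.68) at 3 months. Chst15, at 3.05 (1.42 to 6.42) and 1.76 (1.07 to 2.99), was higher at both ages only in the cells without Ptprc.

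The age comparison of mutant bone/stroma differed with and without the Ptprc cells. With all gated cells 14 members were higher and 3 lower at 12-16 months (20.7% and 23.1% of all genes), and without Ptprc cells 0 of 28 members were called in either direction (6.82% and 7.41%). Csgalnact1, with 142 UMIs in mutant 3M, had a ratio of 0.0814 (0.0423 to 0.144) in all gated cells and had fewer than 20 UMIs over both libraries without Ptprc cells. In controls, which held 1 and 2 such cells, 1 member was higher and 4 lower with all gated cells (6.99% and 9.82%), and also 1 and 4 without them (5.87% and 13.4%).

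**Figure D5:**
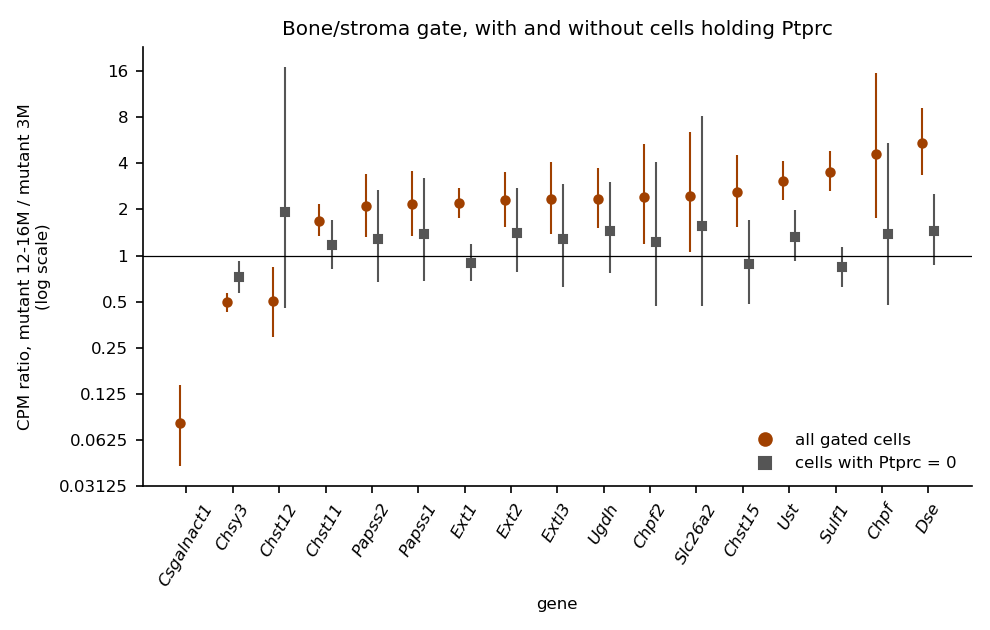
Ratio of CPM in mutant 12-16M to CPM in mutant 3M on a log axis for the 17 members called in the bone/stroma gate, with all gated cells (circles) and with cells that had no Ptprc UMI (squares); bars are 95% intervals for counting error. The squares lie nearer to 1 than the circles for most genes, and Csgalnact1 has no square because it had fewer than 20 UMIs.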

How the data were processed

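The deposited values are UMI counts, 1 matrix of genes by cells for each library, made per the submitters' processing notes with Cell Ranger 8.0.0 on mm10. Kept cells exceeded 750 UMIs and 500 detected genes and had under 7% mitochondrial UMIs. Counts were summed per gate and library where at least 10 cells were present, and gates were compared with edgeR 4.0.16 in R 4.3.3 (quasi-likelihood test, library as a block, 8 gate genes left out, Benjamini-Hochberg adjustment over 11321 genes, adjusted p under 0.05). The SE is the log2 difference divided by the square root of F. The test was also run on simulated counts with known changes. These had a fixed spread for all genes and libraries that differed only in depth, a simpler setting than these data. With 1 library per group, labels and ages were compared by CPM ratios of the summed counts with 95% intervals for counting error only, for genes with at least 20 UMIs, and called at 1.5-fold. Zeros were bounded by a floor of 3 counts. Doublets found by Scrublet (scanpy 1.11.5) were kept in the main results and left out in an alternative. Members called in a gate comparison, or in the same direction at both ages or in both genotypes, were named with values per library, and of each related list at most the 3 called genes with the largest difference. Members and lists were chosen with earlier results of these data known. Counting cells that met both rules as endplate, and leaving Ptprc cells out of bone/stroma, were chosen after seeing the data. DESeq2 1.42.0 was an alternative. Promoter sequences came from RefSeq on GRCm38.p6. Whether p-values over the 4 libraries reflect separate animals is not given in the sources used here.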

Additional observations from a re-analysis of the deposited data

Results flagged for a closer look

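Several members were called in opposite directions in comparable pairs of libraries, which is why they are listed here, and in no case was the difference between the pairs tested. In bone/stroma the mutant to control ratio at 3 months and at 12-16 months was 0.320 and 2.43 for Sulf1, 0.272 and 2.48 for Dse, and 0.521 and 1.78 for Ext1, where 5.91% of all genes were called in opposite directions. Without cells holding Ptprc the same ratios were 1.46 and 2.53 for Sulf1, 1.11 and 2.43 for Dse, and 1.38 and 1.85 for Ext1.

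By age in bone/stroma, the ratio of 12-16 months to 3 months in controls and in mutants was 0.462 and 3.51 for Sulf1, 0.525 and 2.33 for Ugdh, 0.593 and 5.43 for Dse, and 0.643 and 2.20 for Ext1 (5.45% of all genes). Without Ptprc cells the ratios were 0.481 and 0.838 for Sulf1, 0.574 and 1.45 for Ugdh, 0.658 and 1.44 for Dse, and 0.664 and 0.893 for Ext1. The control ratio of Ugdh turned to a log2 value of 0.45 at 5000 UMIs per cell and 0.18 with cells weighted equally, and that of Ext1 to 0.093 at 5000 UMIs per cell, so that the directions were then no longer opposite.

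Over all passing cells the mutant to control ratio at 3 months and at 12-16 months was 0.577 and 1.78 for the linkage enzyme B3galt6 and 0.390 and 4.24 for Chst7 (2.12% of all genes). With cells weighted equally the log2 ratio of B3galt6 at 12-16 months was -0.032, and its directions were then no longer opposite. The age ratio in controls and in mutants was 0.550 and 1.70 for B3galt6, 0.617 and 1.77 for Hs3st1, and 0.180 and 1.96 for Chst7 (2.92%). The share of cells in each gate differed between these libraries, and its part in these values was not tested.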

How the results depend on the processing

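No paired analysis was possible because each group had 1 library and the labels give no shared replicate numbers. Of 271 alternative values of the main counts and ratios, 223 stayed within 1.5 times or the spread, and of the values of single genes 1511 of 1729 kept direction and side. Other counts of members follow, with the main value in parentheses. Leaving out 1 library gave 2 to 7 higher (7) and 1 to 5 lower (4) in endplate cells, 0 lower (1) between hypertrophic and endplate cells, and 4 to 8 higher (5) in bone/stroma, with 8 without mutant 3M. In endplate cells any number of cells gave 4 higher and no filter 7 lower. In hypertrophic cells 4 were lower (7) at 5000 UMIs per cell and 11 without Ptprc cells. Between hypertrophic and endplate cells the lower count was 0 with raised limits, at 5000 UMIs, without doublets, without the block and with the endplate rule first, 2 with DESeq2, 5 without a filter and 2 without Ptprc cells.

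At 5000 UMIs per cell, with cells gated anew, label calls were 5 (17) in bone/stroma at 3 months and 3 (8) at 12-16 months. In other cartilage at 12-16 months they were 3 (5). Age calls were 7 (13) in control other cartilage, 1 (5) in control bone/stroma, 6 (13) in mutant hypertrophic cells, 5 (17) in mutant bone/stroma and 7 (12) over all mutant cells. The 6-O to 4-O ratio was then 0 in control 3M, mutant 3M and mutant 12-16M hypertrophic cells, and 0.108 in control 3M and 0.217 in mutant 12-16M other cartilage. With each cell weighted equally no interval was computed, so a call needed only the 1.5-fold ratio. This rule is looser than that of the main counts, and the counts are not like for like. Label calls were then 11 (5) and 8 (1) in hypertrophic cells at the younger and older age and 8 (5) in older other cartilage. TMM scaling, with the interval kept, also gave 8 there. Age calls with equal weights were 10 (5) in control bone/stroma and 13 (7) in mutant other cartilage. Raised limits gave 3 (5) and 11 (7) in the last pair. Without Ptprc cells 6 (17) label calls at 3 months and 0 (17) mutant age calls were made in bone/stroma. Unthinned shares were 62.7% for Csgalnact2, 3.05% for Chst3 and 98.4% for Papss2 in hypertrophic cells, and 36.2% for Chst3, 74.8% for Papss2 and 79.1% for Chst11 in other cartilage.

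Directions turned for these log2 ratios, and the cause was not tested. At 5000 UMIs they were 0.048 for B3gat3 (label, 3M, hypertrophic), -1.35 for Chsy3 (label, 3M, bone/stroma), 0.35 for Slc35d1 and 0.044 for Papss2 (age, control, other cartilage), 0.45 for Ugdh and 0.093 for Ext1 (age, control, bone/stroma), and -0.10 for Extl3 and 1.28 for Chsy3 (age, mutant, bone/stroma). With cells weighted equally they were 0.0078 for Chpf2 and -0.19 for Chsy3 (label, 3M, bone/stroma), -0.048 for Extl1 (label, 12-16M, other cartilage), -0.28 for Csgalnact2 (label, 12-16M, bone/stroma), -0.032 for B3galt6 (label, 12-16M, all cells), 0.70 for Extl1 (age, control, other cartilage), 0.18 for Ugdh (age, control, bone/stroma) and 0.39 for Chsy3 (age, mutant, bone/stroma). Without Ptprc cells they were 0.54 for Sulf1, 0.15 for Dse and 0.46 for Ext1 (label, 3M, bone/stroma) and -0.26 for Sulf1, 0.93 for Chst12, -0.19 for Chst15 and -0.16 for Ext1 (age, mutant, bone/stroma).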
